A study of Mus musculus with 65 samples.

Results

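This experiment asked what the p300/CBP inhibitor A485 did to nascent transcription in cells that were losing the corepressor Mtg16 at the same time. It set 3 PRO-seq libraries of cells given the degrader and A485 together for 1 h against 3 libraries of cells given the degrader alone for 1 h, which makes 6 of the 65 samples of the series. The samples were chosen by their labels. All 65 came from MEL, a murine erythroleukemia cell line, with Mtg16 (gene Cbfa2t3) expressed as a fusion to FKBP and 2XHA, so every group shared the tagged allele. The degrader was dTAGV1 at 250 nM, which recruits FKBP-tagged proteins for destruction, and A485 was given at 10 µM. In PRO-seq, polymerases in isolated nuclei add a biotin-CTP to the RNA they are making, and the tagged RNA is captured and sequenced, so that the value of a gene reflects engaged polymerase rather than stored mRNA. The same series held further groups that are used below for comparison: DMSO, A485 alone for 1 h, degrader alone for 15 min and both agents for 15 min, with 3 libraries each. Degrader for 30 min had 3 libraries and both agents for 30 min had 2. The labels do not say whether the libraries of a group came from separate cultures, or how many clones the line rests on, so p-values measure the spread between these libraries, which may be technical.

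Mtg16 binds no DNA by itself. It bridges DNA-bound factors of the erythroid and megakaryocytic program, such as the SCL (Tal1), LDB1 and GATA1 complex, to corepressors that carry histone deacetylases. p300 (Ep300) and CBP (Crebbp) are paralogous acetyltransferases that act at enhancers and promoters, where they acetylate histone H3 and H4 tails and other proteins, and A485 competes for their acetyl-CoA site. A gene that Mtg16 holds down and p300/CBP drives is therefore exposed to both agents at once in these cells.

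Depth, in units of 1e+06 reads, was 22.2 to 36.4 in the gene table for the degrader libraries and 20.1 to 28.6 for the libraries with both agents. At dREG sites (active promoters and enhancers that the dREG tool finds by the pattern of nascent reads) it was 3.36 to 5.22 and 2.74 to 4.18. The library numbers were 4 to 6 for degrader alone and 1 to 3 for both agents, and what a number stands for is not given, so in the direct comparison a shift shared by a number range and the effect of A485 cannot be told apart. The 15 min libraries were numbered 4 to 6 in both arms, and a shift shared by number range cancels in the difference from A485 alone, since DMSO carried 4 to 6 and A485 alone 1 to 3. In the difference between 1 h and 15 min such a shift does not cancel, so there it cannot be told apart from time. Values were scaled within each table, so each change is relative to the typical gene or site and a change common to most of them would not be seen. Of 13 erythroid markers, 10 were in the table, with a summed normalized count of 18066 to 18630 in the degrader libraries and 5222 to 5398 with both agents. Of the markers of other cell types, 9 of 17 for granulocytes and macrophages were listed (sum 711 to 907 and 727 to 772), 7 of 14 lymphoid (302 to 314 and 278 to 303), 2 of 9 mast cell (110 to 138 and 69.3 to 121) and 5 of 10 neuronal and epithelial (385 to 428 and 153 to 164). Erythroid transcription was thus present with degrader alone, although the globin markers Hbb-bs and Hbb-bt had means of only 4.06 and 24.4 there. None of the listed markers was at 0 in all 6 libraries. With bulk nuclei, fewer cells of a type and less RNA per cell cannot be told apart.

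Cbfa2t3, the gene of the degraded protein, was read first. It had normalized counts of 50809, 52719 and 49431 in the degrader libraries and 4084, 4829 and 4603 with both agents. All 3 libraries with A485 lay far below all 3 without it, and the log2 change was -3.50 ± 0.11 (standard error, SE; limma adjusted p = 1.2e-24). In DMSO it was at 11270 ± 957 (SD, n = 3), so the level with both agents was also below that of untreated cells. PRO-seq reports transcription of the tagged gene and does not measure the protein. At 1 h it was highest with the degrader alone, and lowest with A485 alone (662 ± 212).

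Most genes that could be tested differed between the groups, and the falls reached further than the rises. Of 12597 genes with a mean normalized count of at least 10, 7887 (62.6%) passed limma's test at an adjusted p under 0.05. Of these, 4076 genes (32.4%) were lower with both agents, with a median of -0.66 on the log2(value + 1) scale used throughout. Another 3811 genes (30.3%) were higher, with a median of 0.33. A change of at least 1 on the log2 scale was reached by 1310 falling genes (10.4%) and by 135 rising genes (1.07%). At 4-fold there were 394 falling genes and 0 rising ones, and at 8-fold 87 falling genes. The 3 libraries of each group did not overlap for 3978 of the falling and 3604 of the rising genes. These genes were called on the same 6 libraries. Over all 12597 genes the groups were apart in 4330 with lower and 4135 with higher values, and overlapped in 4132. The median over all tested genes was 0.02. When each library was instead centred on its median, that median moved to 0.12, and the calls split into 3364 lower and 5223 higher genes (39.2% lower in place of 51.7%), so how many small changes were called in each direction depends on the scaling. The risers of at least 1 were genes with few reads: their median normalized count in degrader cells was 41.1, against 810 for the fallers of at least 1. By selection that group is the lower one for risers and the higher one for fallers, which widens the gap. By the mean of all 28 libraries, 4.23% of genes at 10 to 50 rose by at least 1 and 0% at 1000 to 5000. For falls of at least 1 these shares were 12.9% and 10.1%. The scatter of change against level shows this asymmetry.

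**Figure D1:**
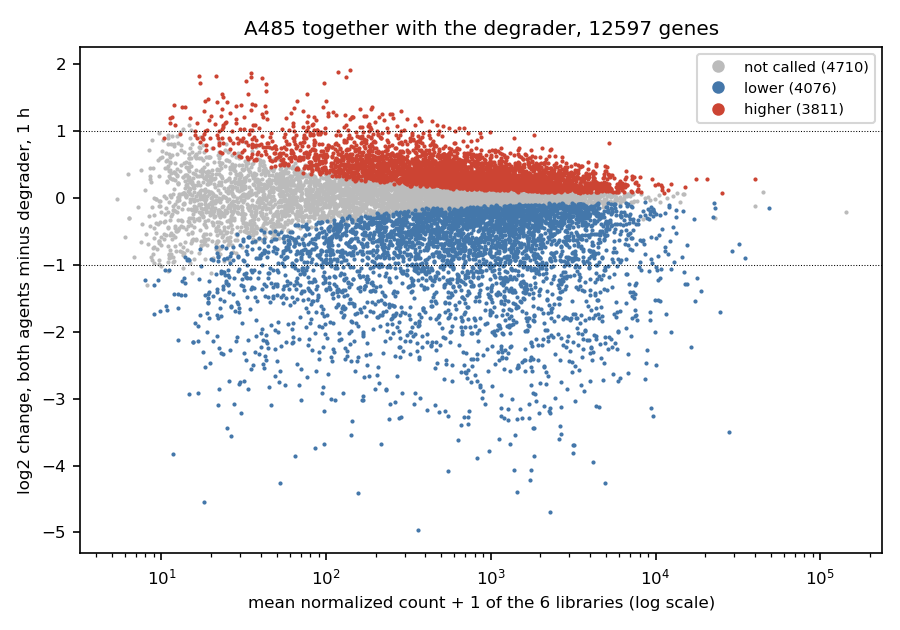
Each point is 1 of 12597 genes, with the mean normalized count of the 6 libraries plus 1 on a log axis and the log2 change of both agents against degrader at 1 h on the vertical axis; blue genes were lower (4076), red genes higher (3811) and grey genes not called. Dotted lines mark a change of 1; 1310 genes fell by at least that much and 135 rose by it, the latter mostly at low counts.

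The deepest falls held genes of the red cell's heme supply, membrane and cytokine signalling. Alas2, the erythroid form of the first enzyme of heme synthesis, had 736, 713 and 634 normalized counts with degrader alone and 29.8, 18.7 and 16.9 with both agents. Its 2 groups were wide apart, with a log2 change of -4.97 ± 0.17 (adjusted p = 2.0e-23), the largest fall among the named genes. Aqp1, the water channel of the red cell membrane, had 2704, 2778 and 2740 against 111, 126 and 157. It fell by 4.39 on the log2 scale (SE 0.095), with no overlap between the groups. Kel, the Kell blood group peptidase, had 1081, 1012 and 1039 against 65.0, 61.3 and 55.3, a change of -4.09 ± 0.10. Cish, a STAT5 target that feeds back on cytokine receptors, had 1664, 1465 and 1504 against 82.0, 138 and 98.3, a change of -3.88 ± 0.13, with no overlap. Il1rl1, the receptor for interleukin 33, fell from 293, 293 and 302 to 10.7, 16.5 and 12.3 (-4.41 ± 0.25). The other 7 of the 12 largest falls were Micall2 (-4.69), Slc22a3, an organic cation transporter (-4.26), Treml2 (-4.21), Spns3 (-4.07), Oaf (-4.07), St3gal1, a sialyltransferase (-3.95), and Il18r1, a receptor chain for interleukin 18 (-3.86). All 12 were already lower at 15 min in estimate, though Il18r1 stood at only -0.12 there.

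**Figure D2:**
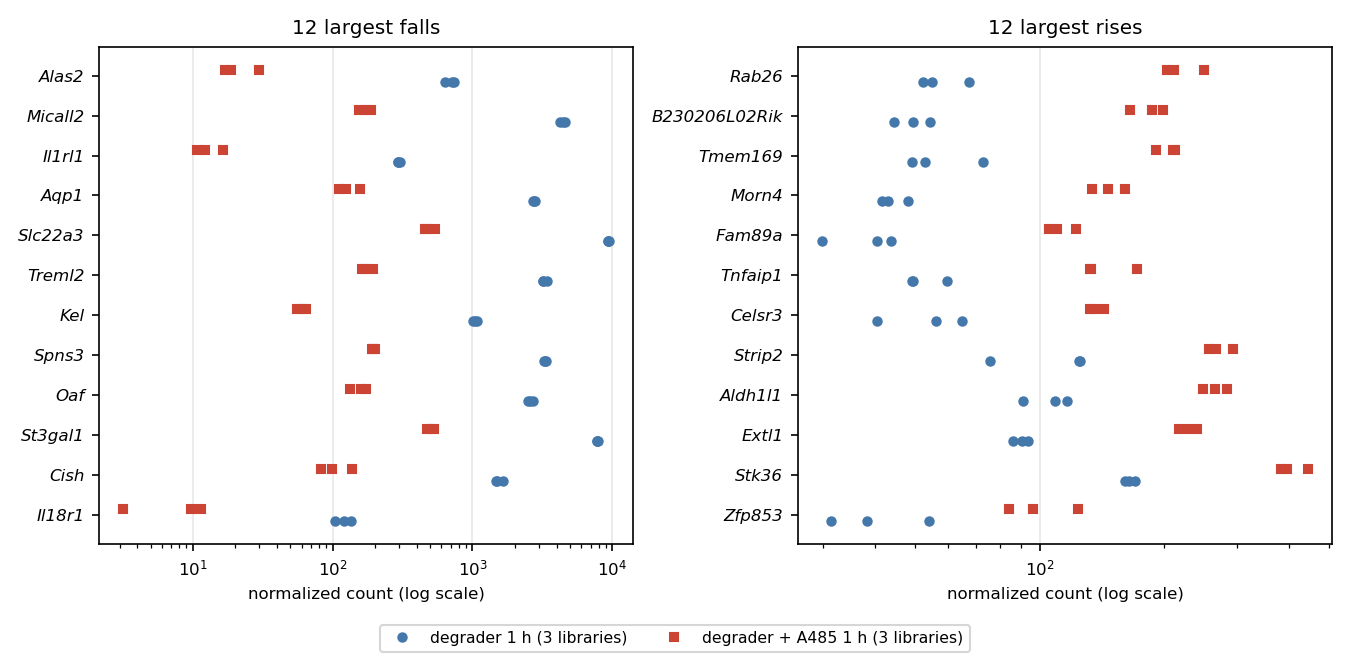
Normalized counts on a log axis for the 12 genes with the largest falls (left) and the 12 with the largest rises (right) under the naming rule; blue circles are the 3 degrader libraries and red squares the 3 libraries with both agents at 1 h. The groups are separate in every row, from 634 down to 29.8 at the nearest libraries for Alas2 and from 67.4 up to 202 for Rab26.

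Across the lists, most tested red cell genes fell, beside the 32.4% of all genes that were lower. Of 24 tested genes of the erythroid membrane and surface, 22 were lower and 0 higher, with a median of -2.22. Besides Aqp1 and Kel, a leading member was Add2, an adducin of the membrane skeleton. It had 5831, 5855 and 5816 against 404, 477 and 471, a change of -3.70 ± 0.06. The 2 members that did not pass were Bpgm (-0.20) and the glucose transporter Slc2a1 (-0.09). Of 16 tested genes of heme synthesis and globin, 13 were lower and 1 higher, with a median of -1.22. Abcb10, a mitochondrial transporter tied to heme production, had 3333, 3537 and 3475 against 508, 512 and 490 (-2.77 ± 0.06). Fech (-1.58), Cpox (-1.57), Ppox (-1.30), Urod (-1.08) and Alad (-1.06), further enzymes of the pathway, fell less than Alas2. Alas1, the housekeeping counterpart of Alas2, was the single member that rose, by 0.44. Hbb-bt, an adult beta-globin gene, had few reads, with 25.6, 24.7 and 22.9 against 3.20, 5.23 and 6.15 (-2.15 ± 0.41, adjusted p = 3.1e-05).

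Most of the blood transcription factors listed fell. Of 30 tested members of the blood factor list, which includes the SCL and GATA1 complex, 26 were lower and 1 higher, with a median of -1.73. Gata1, the master factor of the erythroid lineage, had 3280, 3428 and 3366 in the degrader libraries and 255, 317 and 360 with both agents, with no overlap, and changed by -3.44 ± 0.09. Lyl1, a close relative of Tal1, changed by -3.29, Zfpm1 (FOG1, the GATA1 partner) by -3.26 and Klf3 by -3.16. Myb, which sustains immature blood cells, had 16187, 14670 and 14101 against 2261, 2315 and 2313 (-2.70 ± 0.05). Gfi1b, a repressor of the erythroid and platelet lineages, had 10453, 10304 and 10027 against 1522, 1566 and 1525 (-2.74 ± 0.08). Runx1 changed by -1.71 ± 0.03 and Tal1 itself by -1.49 ± 0.05, both with separate groups. Ldb1, which joins Tal1 and GATA1 complexes, changed by -1.75. Gata2 gave the contrast: 133, 127 and 146 against 135, 129 and 116, overlapping groups and a change of -0.10 ± 0.14 (adjusted p = 0.57). Runx2 (-0.15) and Tcf12 (-0.04) did not pass either, and Ets1 was the single member that rose (1.00).

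Platelet and megakaryocyte genes went the same way: 13 of 14 tested members were lower and 0 higher, median -2.07. Gp1ba, the von Willebrand factor receptor subunit, was at 91.7, 109 and 96.6 against 4.26, 4.49 and 3.84 (-4.27 ± 0.38). F2r, the thrombin receptor, was at 3896, 4160 and 4199 against 461, 506 and 422 (-3.14 ± 0.07). Treml1 changed by -3.67 and Itga2b, the alpha IIb integrin, by -2.59. The other subunit gene Gp1bb did not move beyond its error (-0.01).

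Genes of cytokine signalling and of early responses fell too, by smaller medians. In the JAK-STAT list 17 of 22 tested members were lower and 1 higher, median -0.85. Csf2rb, the shared receptor chain for interleukin 3 and its relatives, changed by -3.44 ± 0.08, and its mouse paralogue Csf2rb2 from 371, 380 and 374 to 98.0, 105 and 78.4. Pim1, a STAT5-induced kinase, changed by -2.99 ± 0.11 and the erythropoietin receptor Epor by -1.79, while Pim2 rose by 0.80. Among AP-1 and immediate early genes 17 of 24 were lower and 1 higher, median -0.90. Btg2, an antiproliferative early gene, had 348, 317 and 389 against 52.2, 64.3 and 49.2 (-2.65 ± 0.15). Klf10 changed by -1.77, Dusp6, a phosphatase that turns off ERK, by -1.39, and Ier2 by -1.39. Fos (-0.14) and Egr1 (-0.04) did not pass, and Fosb rose by 0.40. All 8 tested members of the TGF-beta and Wnt feedback list were lower, median -0.99, led by Rnf43 (-1.54), Tgif1 (-1.53) and Smad7 (-1.48). Of 17 NF-kB and interferon genes 9 were lower and 2 higher, median -0.32. Il1b (-2.33), Tnf (-1.63), Rel (-1.61) and Nfkbie (-1.56) led that list.

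Stress, metabolism and survival genes divided, to be read beside the 32.4% lower and 30.3% higher over all genes. For the unfolded protein and amino acid stress list 14 of 19 were lower and 1 higher, median -0.51, with Ppp1r15a, which restores translation after stress, at -1.90 ± 0.13, Ddit3 (CHOP) at -1.56, Trib3 at -1.22 and asparagine synthetase Asns at -1.11. Atf4, which encodes a factor upstream of those genes, did not pass (0.04). Of 21 hypoxia and glycolysis genes 14 were lower and 3 higher, median -0.44, led by Slc2a3 (-2.41), Hk1 (-2.11) and Pfkp (-1.64). Of 22 cholesterol genes 11 were lower and 3 higher, median -0.23, with Fdps (-1.17) and the regulator Srebf2 (-1.16) lowest. In the Bcl2 family 7 of 13 were lower and 2 higher, median -0.45. Both proapoptotic and antiapoptotic members were among those that fell, with Bid at -1.77, Bcl2l11 (BIM) at -1.40 and Bcl2 at -1.20. Of 19 p53 targets and cyclin-dependent kinase inhibitors 7 were lower and 6 higher, median -0.13; the kinase inhibitor genes Cdkn2d (-2.31) and Cdkn1a (-1.81) led the falls, and Mdm2 rose by 0.14 with overlapping groups. Circadian genes held 6 lower and 1 higher of 10, median -0.37, with the repressor Bhlhe40 at -3.20. Of 20 heat shock and chaperone genes 4 were lower and 5 higher, median -0.01.

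Myc fell, and more genes of ribosome production rose than fell. Myc had 3216, 3113 and 2796 in the degrader libraries and 326, 373 and 379 with both agents, with no overlap (-3.08 ± 0.10). Of 40 genes of ribosome biogenesis and Myc targets, 8 were lower and 22 higher, median 0.15, beside 30.3% of all genes that were higher. Odc1, the ornithine decarboxylase gene, was lowest (-1.17 ± 0.10), Ldha changed by -0.62, Srm by -0.41, and Utp20, a small-subunit processome component, was highest (0.53 ± 0.04). Of 35 cytosolic ribosomal protein genes 0 were lower and 19 higher, median 0.19. These rises were from a lowered level: the list's median change was -0.31 with degrader against DMSO and -0.16 with both agents against DMSO (-0.00079 and 0.01 over all genes), a pair of comparisons that share libraries with the main one. Against DMSO, 18 of the 35 were lower with both agents and 2 higher, and with A485 alone the list's median was -0.11. Rpl3 had 3239, 3324 and 3415 against 4677, 4351 and 4484 (0.44 ± 0.05), with separate groups. In DMSO it was at 4551 ± 279 (SD, n = 3), close to the level with both agents. Rpl10a rose by 0.58, from 679 to 1014 with 1216 in DMSO, Rps23 by 0.83 and Rplp1, which had few reads, by 0.82. Of 31 proteasome subunits 2 were lower and 11 higher (beside 30.3% of all genes), median 0.12, with Psmd14 at 0.28. Against DMSO the proteasome median was -0.10 with degrader and 0.05 with both agents, with 4 members lower and 5 higher with both. The ribosome biogenesis list had -0.10 and 0.06 against DMSO, with 10 lower and 14 higher with both. With each library centred on its median, 30 ribosome biogenesis genes, 29 ribosomal protein genes and 21 proteasome genes were higher. The rest of the Myc and Max network was mixed, with 3 of 9 lower and 4 higher: Mxi1 (-0.89) and Mnt (-0.79) fell, and Mxd3 rose (0.88).

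Cell cycle genes were mixed. The list held 9 lower and 15 higher of 30 tested, median 0.22, beside 32.4% lower and 30.3% higher over all genes. The D-type cyclins, which act early in G1, fell: Ccnd3 was at 2014, 2519 and 2184 against 360, 414 and 345 (-2.58 ± 0.10) and Ccnd2 changed by -2.16 ± 0.04. E2f2 (-1.88), Cdc6 (-1.42) and Cdk6 (-0.91) fell as well. Other genes of DNA synthesis and mitosis rose by smaller amounts, such as Rrm2 (0.68), Mcm4 (0.59), Tyms (0.41) and Cdk1 (0.38).

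The gene of p300 did not pass the test and that of CBP rose slightly, while the elongation control list was called near the share of all genes. Ep300 had 3436, 3089 and 3260 against 3167, 3183 and 3164, overlapping groups and a change of -0.04 ± 0.04 (adjusted p = 0.42). Crebbp was higher in all 3 libraries with A485 (2845, 2600 and 2666 against 3485, 3570 and 3420; 0.37 ± 0.04). Of 19 acetyltransferase genes 10 were lower and 3 higher, median -0.12. Kat2b (PCAF) changed by -0.94 ± 0.04, and Cited4 (-2.07) and Cited2 (-0.87), whose proteins bind p300/CBP, rested on means of at most 68.1 normalized counts. When libraries were centred on their medians, 6 acetyltransferase genes were lower and 7 higher. For the P-TEFb, BET and elongation list 8 of 27 (29.6%) were lower and 7 higher, median 0.01, near the 32.4% lower and 30.3% higher over all genes. Ell2, an elongation factor of the super elongation complex, had 6488, 6092 and 6216 against 1386, 1453 and 1485 (-2.12 ± 0.05), and its scaffold Aff1 changed by -1.61 ± 0.04. Hexim1, the P-TEFb inhibitor, changed by 0.31 ± 0.13 (adjusted p = 0.037; 0.18 without degrader library 5). Among Mtg16's own relatives and corepressors 9 of 19 were lower and 4 higher, median -0.23. After Cbfa2t3 the lowest were Zfp217 (-2.03) and Tbl1xr1 (-1.33), while the paralogue Cbfa2t2 (0.04) did not pass and Hdac3 rose by 0.42.

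**Figure D3:**
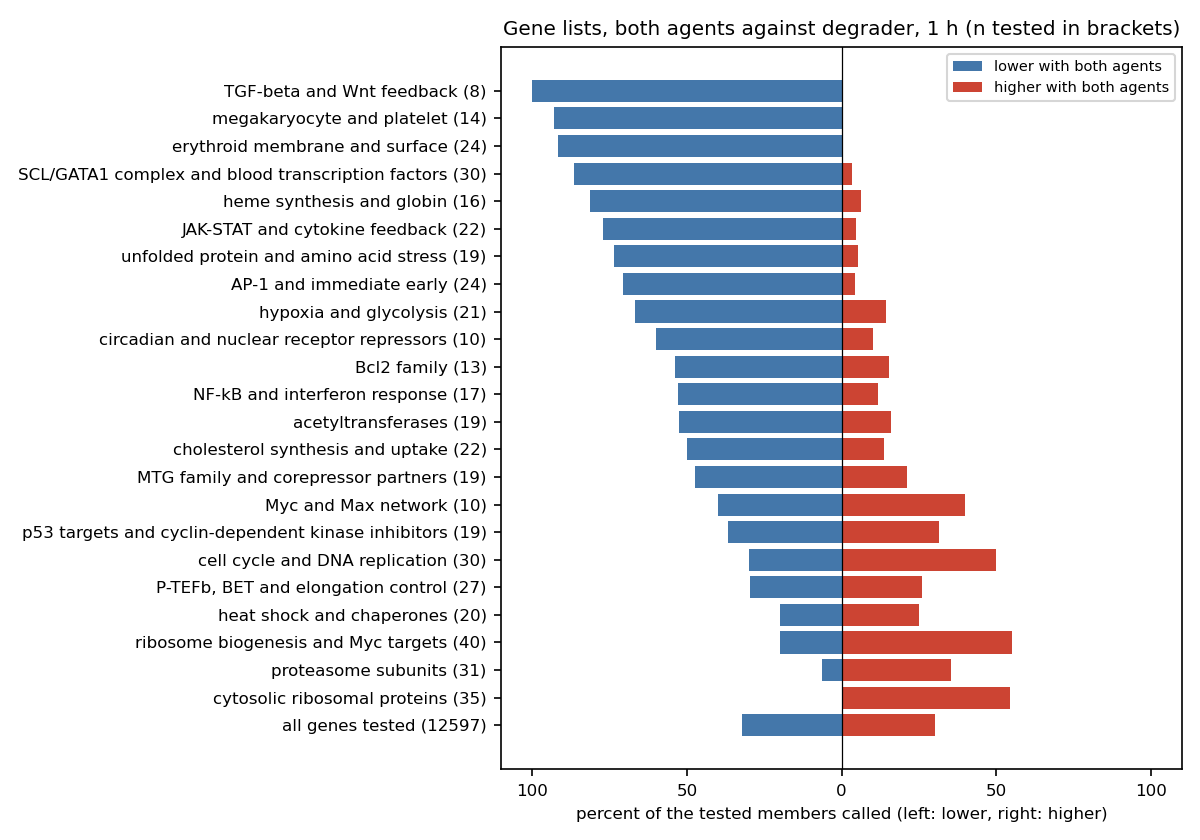
Horizontal bars give, for each list with at least 8 tested genes (number in brackets), the percent of tested members called lower (blue, to the left) and higher (red, to the right) with both agents against degrader at 1 h; the lowest bar is all 12597 genes (32.4% lower, 30.3% higher). The red cell, platelet and blood factor lists reach far to the left, and ribosomal proteins have no bar there.

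The genes with the largest rises had few reads. Rab26, a small GTPase of secretory vesicles, led them with 52.3, 67.4 and 54.9 in the degrader libraries and 202, 211 and 249 with both agents, wholly separate groups and a change of 1.91 ± 0.17 (adjusted p = 1.3e-11). Tmem169 had 49.1, 73.0 and 52.8 against 210, 212 and 191 (1.81 ± 0.17). Stk36, a kinase of the Hedgehog and ciliary pathways, had the most reads of the 12, with 170, 161 and 165 against 395, 382 and 443 (1.30 ± 0.10). B230206L02Rik (1.87), Morn4 (1.71), Fam89a (1.56), Tnfaip1 (1.44), Celsr3 (1.35), Strip2 (1.35), Aldh1l1 (1.33), Extl1 (1.32) and Zfp853 (1.29) made up the rest. Of the 135 genes that rose by at least 1, 104 were also higher with A485 alone (beside 29.4% of all genes). At 15 min 64 were already higher (beside 24.8%). The comparison with A485 alone set the same library number ranges against each other, so a shift by number range would enter it too. The median change of the 135 genes grew from 0.44 at 15 min to 0.84 at 30 min and 1.19 at 1 h. The risers had a median length of 21.0 kb, against 21.8 kb over all and 23.3 kb for those that fell by at least 1. Long genes were fewer among them. The share of genes that rose by at least 1 was 1.15% under 10 kb and 1.23% from 30 to 100 kb. It was 0.45% (4 genes) from 100 to 200 kb and 0.37% (2 genes) at 200 kb or more. Normalized counts are not per length, so the low values of the risers say how many reads support them.

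Promoters are shown for genes with the largest falls and rises, which were chosen by the size and direction of their change. The sequences are the 150 bases before the annotated start from RefSeq (GRCm38.p6), on the gene's own strand, 5′ to 3′. Capitals mark matches on either strand to any of 8 motifs. GATAA is the core read by GATA factors and CAGCTG is an E-box. TGTGGT is a RUNX core and TATAAA stands for the TATA box. GGGCGG is a GC box, copies of which can overlap, and CCAAT is the box bound by NF-Y. TGACGTCA is a cAMP response element and TGANTCA is an AP-1 site. Rab26 is named only. The first 4 genes fell and the last 4 rose.
Alas2 (chrX:150547267-150547416, plus strand): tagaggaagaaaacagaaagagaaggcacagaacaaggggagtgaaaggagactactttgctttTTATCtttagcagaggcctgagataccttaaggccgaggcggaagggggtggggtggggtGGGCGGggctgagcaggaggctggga
Micall2 (chr5:139736334-139736483, minus strand): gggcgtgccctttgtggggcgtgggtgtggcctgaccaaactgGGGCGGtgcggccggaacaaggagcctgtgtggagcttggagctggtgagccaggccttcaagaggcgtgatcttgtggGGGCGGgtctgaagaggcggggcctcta
Il1rl1 (chr1:40429420-40429569, plus strand): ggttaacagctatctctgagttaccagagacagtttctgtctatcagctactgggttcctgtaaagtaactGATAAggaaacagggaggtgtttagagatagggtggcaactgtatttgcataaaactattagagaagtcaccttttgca
Aqp1 (chr6:55336149-55336298, plus strand): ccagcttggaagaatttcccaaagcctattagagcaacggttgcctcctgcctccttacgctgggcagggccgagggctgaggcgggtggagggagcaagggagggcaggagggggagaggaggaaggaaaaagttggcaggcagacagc
B230206L02Rik (chr11:94133306-94133455, plus strand): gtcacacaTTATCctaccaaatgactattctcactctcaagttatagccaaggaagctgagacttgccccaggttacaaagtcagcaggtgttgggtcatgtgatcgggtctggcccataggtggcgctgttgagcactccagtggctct
Tmem169 (chr1:72284223-72284372, plus strand): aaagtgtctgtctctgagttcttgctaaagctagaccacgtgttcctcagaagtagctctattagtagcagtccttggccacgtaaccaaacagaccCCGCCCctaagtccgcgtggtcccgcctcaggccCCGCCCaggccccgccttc
Morn4 (chr19:42086371-42086520, minus strand): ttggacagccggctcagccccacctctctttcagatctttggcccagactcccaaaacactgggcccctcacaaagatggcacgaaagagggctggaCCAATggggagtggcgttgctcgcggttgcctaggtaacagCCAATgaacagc
Fam89a (chr8:124751867-124752016, minus strand): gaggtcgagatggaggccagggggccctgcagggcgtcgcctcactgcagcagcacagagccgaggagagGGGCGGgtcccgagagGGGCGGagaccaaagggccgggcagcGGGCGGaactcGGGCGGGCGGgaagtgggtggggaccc

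In these windows Alas2 held a GATA core and a GC box, Il1rl1 a GATA core and no CpG at all, Micall2 GC boxes, and Aqp1 none of the 8 motifs. Of the rising genes, B230206L02Rik held a GATA core, Tmem169 and Fam89a GC boxes and Morn4 CCAAT boxes. Counts over 300 bases, from 250 before the start to 50 after it, covered 1034 of the 1310 genes that fell by at least 1, 114 of the 135 that rose by at least 1, and 10171 of all 12597. GATAA was present in 21.2% of the falling, 19.3% of the rising and 16.1% of all tested promoters. An AP-1 site was in 7.74%, 5.26% and 4.82%, CAGCTG in 18.5%, 10.5% and 14.7%, and TGTGGT in 14.2%, 12.3% and 12.7%. CCAAT was in 34.8% of the falling, 54.4% of the rising and 39.0% of all tested promoters. GGGCGG was in 55.9%, 53.5% and 63.3%, TATAAA in 8.99%, 6.14% and 6.46%, and TGACGTCA in 1.45%, 2.63% and 3.26%. The median number of CpG was 14 in falling, 15 in rising and 21 in all tested promoters. Over all 27025 promoters of the RefSeq table the shares were 25.8% for GATAA, 16.1% for CAGCTG, 16.9% for TGTGGT, 14.2% for TATAAA, 35.9% for GGGCGG, 38.0% for CCAAT, 1.85% for TGACGTCA and 7.92% for TGANTCA. A match is a description of letters, not a bound site.

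Much of the response was in place after 15 min. In the 15 min libraries, which share none with the 1 h comparison, 3724 genes (29.6%) were lower with both agents than with degrader alone and 3119 (24.8%) higher. The lists shared 3253 falling genes, which is 79.8% of the 1 h falls and 87.4% of the 15 min falls, and 2444 rising genes (64.1% and 78.4%). Only 7 of the 1 h falls were higher at 15 min. The changes correlated across genes at r = 0.85 (Spearman's rho 0.81), a description since genes are not independent replicates. The median of the 1 h falls was -0.45 at 15 min, -0.57 at 30 min and -0.66 at 1 h. The change differed between 1 h and 15 min in 2521 genes (20%), more negative at 1 h in 1518 (12.1%) and more positive in 1003 (7.96%). The arms differed in library numbers at 1 h and not at 15 min, so time and a shift by number range cannot be told apart here. Slc22a3 is an example: with degrader it was at 9898 ± 88.3 (SD, n = 3) at 15 min and 9346 ± 98.1 at 1 h, and with both agents at 5648 ± 237 and 487 ± 45.4. Its change went from -0.81 to -4.26, a difference of -3.45 ± 0.08 (adjusted p = 1.7e-26). Atp2b4, a plasma membrane calcium pump, had not moved at 15 min (1983 ± 17.8 against 1915 ± 22.2) and was at 3778 ± 84.3 against 436 ± 23.0 at 1 h.

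The fall came later in longer genes. Among 1222 genes that A485 alone lowered by at least 1 at 1 h (9.7% of those tested), a set chosen on DMSO and A485 libraries and so on none of the libraries compared here, 1132 were also lower with both agents than with degrader. Their medians by length show the delay. Under 10 kb (387 genes) the median was -1.15 at 15 min, -1.18 at 30 min and -1.31 at 1 h. From 30 to 100 kb (320 genes) it was -0.87, -1.61 and -1.73. At 200 kb or more (28 genes) it was -0.42, -0.86 and -1.63. The share of those genes that were more negative at 1 h than at 15 min was 12.4% under 10 kb, 81.6% at 30 to 100 kb and 89.3% at 200 kb or more. Level moved with length in this set, with a median normalized count of 102 in the shortest and 3763 in the longest bin, and its part in these shares was not tested. The 30 min values rest on 2 libraries with both agents, numbered 1 and 2, against 3 degrader libraries numbered 4 to 6. At 1 h the arms differed in number range too, as did the A485 and DMSO libraries on which the set was chosen. At 15 min they did not, so a shift by number range and time cannot be told apart in these medians. Runx1, at 225 kb, illustrates the longest bin with -0.43 at 15 min, -0.87 at 30 min and -1.71 at 1 h, whereas Gata1, at 17.4 kb, was at -2.88, -3.33 and -3.44.

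**Figure D4:**
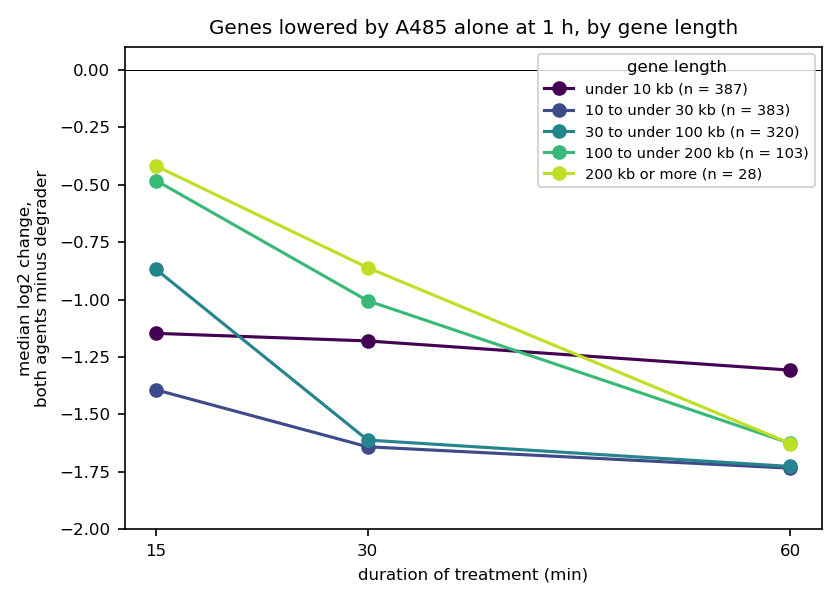
Median log2 change of both agents against degrader (vertical axis) at 15, 30 and 60 min of treatment for the genes that A485 alone lowered by at least 1 at 1 h, in 5 bins of gene length (number of genes in the legend). Genes under 10 kb stay between -1.15 and -1.31, while genes of 200 kb or more go from -0.42 to -1.63.

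The design also gave the change with A485 in cells without the degrader. With A485 alone against DMSO, 4186 genes (33.2%) were lower and 3703 (29.4%) higher. The falls of the 2 comparisons, which share no library, had 3405 genes in common (83.5% of the falls with degrader and 81.3% of those without), and the rises 2746 (72.1% and 74.2%). Across genes the changes correlated at r = 0.86 (rho 0.78). Both comparisons set libraries numbered 1 to 3 against libraries numbered 4 to 6. A shift by number range would enter both, so in this overlap it cannot be told apart from the effect of A485. The difference itself passed the test in 1453 genes (11.5%), with 824 (6.54%) more negative and 629 (4.99%) more positive when the degrader was present. The difference contains the same degrader and both-agent libraries as the direct comparison, so the 2 are not independent. The 3 libraries of A485 alone at 1 h had depths of 7.45 to 14.7 in the same units and included the shallowest of the table.

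Named genes show both directions of that difference. Gfi1b changed by -2.74 with degrader and by -3.77 without it, a difference of 1.03 ± 0.12 (adjusted p = 2.3e-07). Its levels were 4516 ± 363 in DMSO, 10262 ± 216 with degrader, 335 ± 66.7 with A485 and 1538 ± 24.7 with both (SD, n = 3). Cbfa2t3 likewise was at 662 ± 212 with A485 alone and 4505 ± 382 with both, a difference in effect of 0.63 ± 0.15 (adjusted p = 0.0057). For these 2 genes A485 took away less, on the log2 scale, in degrader-treated cells. Myb went the other way, by -0.33 ± 0.07, from 6542 ± 404 in DMSO and 14986 ± 1078 with degrader to 1260 ± 47.4 with A485 and 2296 ± 30.8 with both. Runx1 differed by -0.31 ± 0.05, while Gata1 (-0.15 ± 0.12) and Tal1 (0.06 ± 0.07) did not pass. Of the ribosomal protein genes, 18 of 35 had a positive difference and 0 a negative one, beside 4.99% of all genes. Of the erythroid membrane genes 11 of 24 had a negative difference and 2 a positive one, beside 6.54%.

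**Figure D5:**
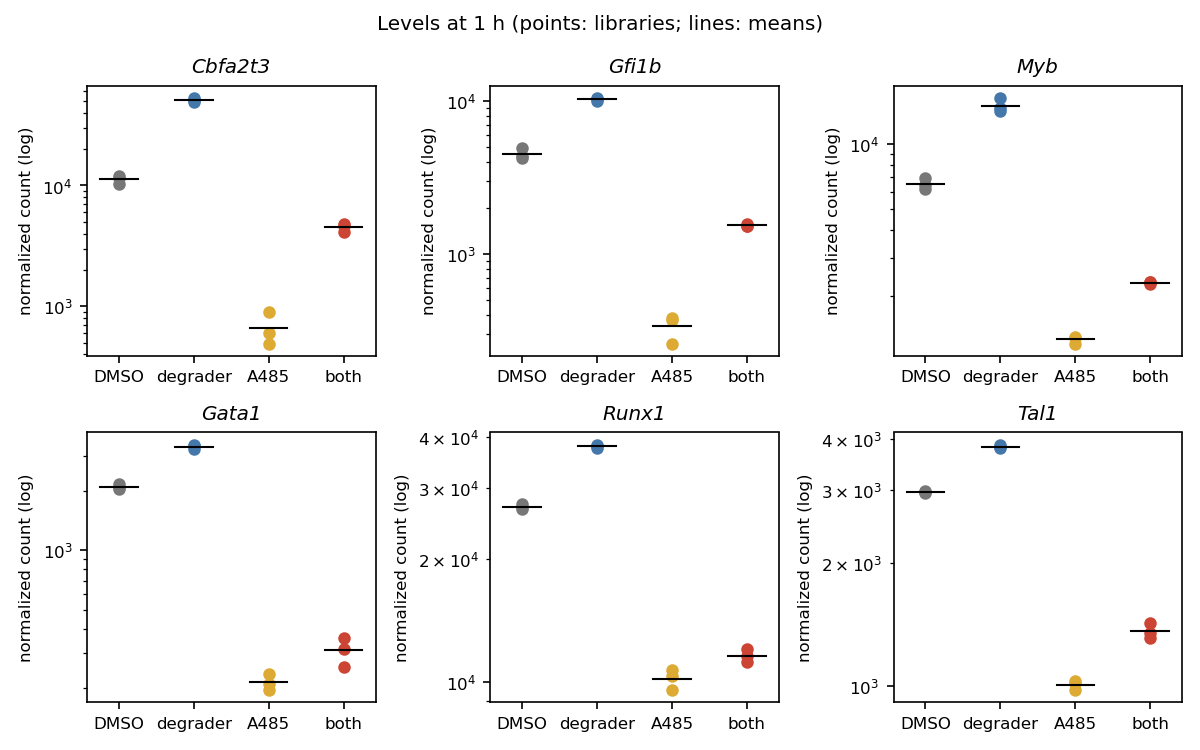
Normalized counts (log axes, each panel with its own range) of 6 genes at 1 h in DMSO, degrader, A485 and both agents; points are single libraries (3 in each group) and lines are means. In each panel the degrader libraries are the highest and the A485 libraries the lowest, with the libraries of both agents between A485 and DMSO.

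Genes that the degrader raised were mostly lower when A485 was present. They were taken from a separate set of libraries, a time course, where 473 genes (3.72%) were higher after 30 min of degrader than in DMSO. Of these, 455 were tested here, and 433 were lower with both agents than with degrader, 1 was higher and 21 did not pass (median -1.64). Over all genes tested here, 32.4% were lower and 30.3% higher. Library 3 of the 3 at 30 min stands apart from the rest of its group, and without it the time course called 1296 genes (10.2%), of which 1272 were tested here, 1087 of them lower and 49 higher (median -1.05). Among those raised by at least 1, 181 of 194 were lower and 0 higher with all libraries, and 200 of 217 and 0 without the library. Against DMSO, a comparison that shares the libraries of both agents, 336 of the 455 were lower (beside 32.5% of all genes) and 19 higher (beside 30.5%), so the level with both agents was mostly under that of untreated cells. Of the 455, 394 were higher with degrader than DMSO at 1 h in the libraries used here, beside 14.7% of all genes. A485 alone lowered the same genes too: their median was -1.18 against DMSO. With both agents against A485 alone it was 0.26.

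Slc22a4, an organic cation and ergothioneine transporter, was at 158 ± 9.9 in DMSO. It had 1122, 1211 and 1178 with degrader and 105, 98.0 and 82.2 with both agents, with separate groups, a change of -3.61 ± 0.15 and a more negative effect of A485 than without degrader (-1.83, adjusted p = 2.3e-07). Ak8, an adenylate kinase, had 1571, 1607 and 1354 against 222, 218 and 211 (-2.79 ± 0.09) and stood at 366 ± 18.8 in DMSO. Hemgn (hemogen), an erythroid nuclear protein gene, had 1178, 1401 and 1349 against 126, 141 and 137 (-3.27 ± 0.17) and was at 433 ± 34.8 in DMSO. Cdkl1 was among those that kept a small excess, at 69.3, 75.5 and 79.9 with both agents beside 52.1 ± 12.3 in DMSO (0.54 on the log2 scale, adjusted p = 0.014). These 4 genes were picked from the list after their values were seen. Members that did not pass were mostly low, such as Acox2 (0.26) and Zmynd15 (0.75).

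At regulatory sites falls outnumbered rises with the deposited scaling, and rises outnumbered falls when libraries were centred on their medians. Of 21312 dREG sites with a mean of at least 10, 8408 (39.5%) passed, with 5070 (23.8%) lower and 3338 (15.7%) higher with both agents. A change of at least 1 was reached by 3258 falling sites (15.3%) and 614 rising ones (2.88%). With libraries centred on their medians the calls were 4195 lower and 5742 higher (42.2% lower in place of 60.3%), and the median over all sites went from 0.04 to 0.21. The site with the largest fall, chr6:55326611-55328100 (mm39 per the submitters' notes; gene context not analysed here), had 393, 347 and 345 normalized counts with degrader and 18.9, 11.8 and 8.59 with both agents. The groups were far apart, and the change was -4.75 ± 0.24. At chr17:31289531-31290620 the change was -3.68, at chr16:95240351-95240750 -3.54, at chr11:72384781-72385190 -3.53 and at chr15:73506951-73508680 -3.50. The chromosome 11 site was apart from the others in time: it stood at 0.49 after 15 min (limma adjusted p = 0.070) and -0.49 after 30 min, and its change differed between 1 h and 15 min by -4.02. The site chr16:95240351-95240750 was at 19.8 in DMSO, 135 with degrader and 10.9 with both. The level with both did not pass against DMSO (-0.78, limma adjusted p = 0.12).

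The sites that rose most differed widely in level and width. The largest rise, chr3:96846221-96847040, had 28.5, 20.1 and 38.9 against 105, 107 and 102 (1.86 ± 0.24), with separate groups. The next were chr7:121788961-121789300 (1.77), chr13:74514981-74516530 (1.62), chr15:81832371-81833700 (1.56), chr11:62498491-62499180 (1.49) and chr12:69201081-69201450 (1.47). The last 2 were lower with degrader than in DMSO (449 against 834 and 108 against 258) and stood at 1267 and 300 with both. Against DMSO the level with both was higher at the chromosome 11 site (0.62, limma adjusted p = 8.5e-05). At the chromosome 12 site it did not pass (0.22, limma adjusted p = 0.28). Sites that rose by at least 1 had a median width of 490 bases and a median normalized count of 13.2 with degrader, against 830 bases and 72.9 for those that fell by at least 1 and 700 bases over all sites. By selection the degrader group is the lower one for risers, which widens the gap in counts. By the mean of all 28 libraries, 5.00% of sites at 10 to 30 rose by at least 1 and 0.52% at 300 to 1000. For falls of at least 1 these shares were 15.4% and 8.36%. Over all 3338 sites called higher the median count was 62.8, so the low level belongs to the rises of at least 1 and not to rising sites in general. The share of sites that fell by at least 1 was 10.1% at up to 300 bases and 22.6% at over 1500 bases, and the share that rose by at least 1 was 4.30% and 0.43%. Level moved with width as well, with a median of 19.4 in the narrowest and 226 in the widest bin, and its part was not tested.

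At 15 min 3774 sites (17.7%) were lower and 1835 (8.61%) higher, and 3333 of the falls were shared, which is 65.7% of the 1 h falls and 88.3% of the 15 min falls. The change differed between 1 h and 15 min in 438 sites (2.06%), with 384 (1.8%) more negative and 54 (0.253%) more positive. This count depends on the fit: it was 680 with edgeR, 710 with DESeq2 and 987 with only the compared groups in the model.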

How the data were processed

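Nascent RNA was measured by PRO-seq in the MEL line, and the gene and dREG site tables of 28 libraries in 10 groups were used. The deposited signal in both tables is a read count that DESeq2 had scaled for each library, per the labels. Per the submitters' processing notes the tools were featureCounts 2.0.1, HOMER, DESeq2 1.46.0, bedtools, Bowtie2 2.2.2 and SAMtools 1.16.1, with the builds dm3 and mm39 (roles not given in the sources used). Whole reads were recovered for 100% of values (tolerance 0.1 reads), which gave the depths and the count tests.

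The signal was tested as log2(value + 1) in R 4.3.3 by limma 3.58.1, using lmFit and then eBayes with its trend option, with all 10 groups in 1 model, features of mean at least 10, Benjamini-Hochberg adjustment and a threshold of 0.05. Changes are on that scale, which understates those of low features. The 25857 transcripts were reduced to 15020 symbols. edgeR 4.0.16 and DESeq2 1.42.0 on the recovered reads, other filters, pseudocounts and scalings, and left-out libraries were alternatives, and the fit was tested on simulated data. The comparison, the lists and the fixed genes were chosen with earlier results of these data known, and the lists are described by counts and medians with no set test. Named genes were the 12 largest called falls and rises with separate groups and a mean of at least 100 in the higher group, the leading members of each list, fixed names and the 4 largest differences in each direction; other genes named were chosen after their values were seen. In the time course table, 16 sample columns were not used. 1 of the 6 largest falling sites and some genes under the naming rule are not reported here.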

Additional observations from a re-analysis of the deposited data

Results flagged for a closer look

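The change with A485 differed between degrader-treated and untreated cells in 1453 genes by limma's test of the difference at an adjusted p under 0.05. Among the genes described above, that difference was -0.45 for Aqp1, 0.63 for Cbfa2t3, -0.33 for Myb, 1.03 for Gfi1b, -0.31 for Runx1 and 0.18 for Crebbp, on the log2 scale. The most negative differences under the naming rule were Klhl32 (-2.15), the sodium channel gene Scn10a (-2.10), Lrrc75b (-1.94) and Asb17 (-1.87). The most positive were the histone genes H2bc22 (2.41) and H2bc4 (2.17), the metallothionein Mt1 (1.97) and Inka1 (1.95). H2bc22, H2bc4 and Mt1 were below DMSO with each agent alone and with both. In DMSO, degrader, A485 and both, the means were 325, 65.1, 58.1 and 57.5 for H2bc22. They were 1437, 374, 492 and 569 for H2bc4, and 165, 61.2, 20.1 and 28.6 for Mt1. Lrrc75b was above DMSO in each, with 33.9, 111, 126 and 104. Scn10a was at 229 ± 18.8 with degrader, 95.3 ± 17.9 with A485 and 49.6 ± 7.72 with both (SD, n = 3). Klhl32 rests on libraries that vary, with 302 ± 152 for A485 alone and 81.4 ± 60.9 for degrader, and Inka1 on few reads, with 5.74 ± 5.74 for A485 alone. The change also differed between 1 h and 15 min in 2521 genes and 438 sites, with the limit on library numbers given above. It was more negative at 1 h for Il18r1 (-3.75), Slc22a3 (-3.45), Slc45a4 (-3.06) and Atp2b4 (-3.06). It was more positive for Slc6a2 (1.61), Zfp853 (1.51), Celsr3 (1.42) and Tex29 (1.35). Groups of 3 libraries are too small for a test of a single library that stands far from the others.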

How the results depend on the processing

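Of the main counts recomputed under other settings, 106 stayed within 1.5 times the reported value and 5 did not; of the counts of list members, 874 did and 54 did not, most often with libraries centred on their medians. Of the medians by gene length, 59 moved by less than the replicate spread and 13 by more. At 15 min they ranged from -1.22 to -0.97 for the shortest and -0.46 to -0.34 for the longest genes, and at 1 h from -1.39 to -1.12 and -1.65 to -1.52. No named site changed direction, nor did any named gene that was called in the main fit or in the alternative. For named genes called in neither, such as Ep300 and Gata2 in the main fit, a change of sign was not recorded. The number of sites called was 5255 when a mean of at least 50 was required, which leaves 10029 sites to test. Sites whose change differed between 1 h and 15 min numbered 680 with edgeR, 710 with DESeq2 and 987 with only the groups of the comparison in the fit, against 438. Without degrader 30 min library 3 of the time course, an alternative chosen after seeing the data, 1087 of the genes raised there were lower here. Leaving out each library in turn gave 7355 to 7554 genes and 7131 to 7603 sites for the 1 h comparison, 975 (without DMSO library 4) to 1628 genes for the difference from A485 alone, 2171 to 2375 genes and 331 to 371 sites for 1 h against 15 min, and 429 to 434 genes of the time course list. The title letters and library numbers did not pair the libraries (correlations of deviations over genes of 0.046, 0.088 and -0.012 by letter). With the letter as a replicate block 8192 genes and 10189 sites were called, and with the number as a block 1154 genes differed from A485 alone. In the 1 h comparison Hexim1 lost its call in 4 alternatives, Psmc5 in 3 and Rplp1 in 1. For the difference from A485 alone, which is a separate test, Inka1 lost its call in 13.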
